A study of Mus musculus with 6 samples.

Results

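Genes of respiratory complexes II to V were measured in quadriceps femoris, the large thigh muscle, of mice lacking Prr14 (Prr14-KO) and of Prr14-WT mice. Total RNA was turned into full-length-enriched cDNA, amplified by PCR and read on an Oxford Nanopore instrument, with 3 libraries per genotype. The members were the rows of the deposited gene table named as succinate dehydrogenase subunits (Sdha to Sdhd), Uqcr genes, Cyc1, Cycs, Cox4 to Cox8 genes, Atp5 genes, or mt-Cytb, mt-Co1, mt-Co2, mt-Co3, mt-Atp6 and mt-Atp8. That gave 56 of 22036 rows: 4 in complex II, 10 in complex III, 1 for cytochrome c, 21 in complex IV and 20 in complex V. Of these, 6 are encoded by the mitochondrial genome and 50 by nuclear chromosomes, and 53 had at least 1 count. The labels state neither strain, age nor sex, nor the deleted part of Prr14 or whether the deletion is confined to muscle. The labels do not say that the libraries of a genotype came from separate animals, so the p-values measure only the spread between these libraries.

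The respiratory chain lies in the inner mitochondrial membrane. Complex II (succinate dehydrogenase) and complex I feed electrons into ubiquinone, complex III (the cytochrome bc1 complex) passes them to cytochrome c, and complex IV (cytochrome c oxidase) passes them to oxygen. Complexes I, III and IV pump protons, and complex V (ATP synthase) uses the proton gradient to make ATP. Complex II is built from nuclear genes alone, whereas complexes III, IV and V combine nuclear subunits with a catalytic core or membrane part from the mitochondrial genome. Oxidative muscle fibres hold more of these complexes than glycolytic ones.

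The listed genes held 1436099 to 1712975 counts per library. Levels are CPM, a gene's reads relative to the size of its library, after scaling by TMM, edgeR's trimmed mean of M-values. The TMM factors were 0.862 to 0.970 in WT and 1.06 to 1.11 in KO libraries, so the scaling itself separated the genotypes. Prr14 had 9, 11 and 12 counts in WT and 4, 10 and 3 in KO libraries (edgeR log2 fold change -1.10, adjusted p = 0.196), too few to check the genotype labels. The labelled tissue carried skeletal myofibre RNA (Ckm, Acta1, Ttn and Mb summed to 76318 to 123457 CPM), while the cardiac list (Myh6, Nppa, Tnni3, Tnnt2) summed to at most 6.73 CPM. Fast-fibre genes summed to 151959 to 189507 CPM in WT and 104736 to 120118 CPM in KO libraries. Slow-fibre genes summed to 450, 355 and 65.0 CPM in WT and to 329, 1417 and 109 CPM in KO libraries, with no gene of the 8 past the threshold.

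No respiratory complex II to V gene passed the threshold between genotypes. Of the 52 members with enough counts to test, 0 reached an adjusted p under 0.05 in edgeR's quasi-likelihood test, against 6.26% of the 6680 genes tested. At an unadjusted p under 0.05 there were 13 members, 12 lower and 1 higher in KO, or 25.0%, beside 20.0% of all genes tested. DESeq2 called 0 of 51 members with an adjusted p, beside 5.09% of its 5972 genes, and limma-voom 0 of 52, beside 5.18%. The members' log2 fold changes (KO minus WT) ran from -0.51 to 0.49 with a median of -0.11, where the median of all genes tested was 0.02. Negative values were found for 42 members and positive ones for 10, while 48.0% of all genes tested were negative. At an unadjusted p under 0.05 the split over all genes was 620 lower and 713 higher. On plain library totals 12 members were negative and 40 positive, beside 24.4% of all genes negative.

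On the TMM scale these small differences had small standard errors, which do not cover the choice of scaling. The members' median log2 fold change moved from -0.107 to 0.126 on plain library totals. The median standard error was 0.10 log2 units for the members and 0.25 for all genes tested, which were not matched to the members in level. The 95% interval lay within 2-fold in either direction for 49 of the 52 members, the exceptions being Cox8a, Cox4i2 and mt-Atp8. It lay within 1.5-fold for 48 members, with Cyc1 as the further exception. Across all 6680 genes, 4479 intervals lay within 2-fold and 1592 within 1.5-fold.

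**Figure D1:**
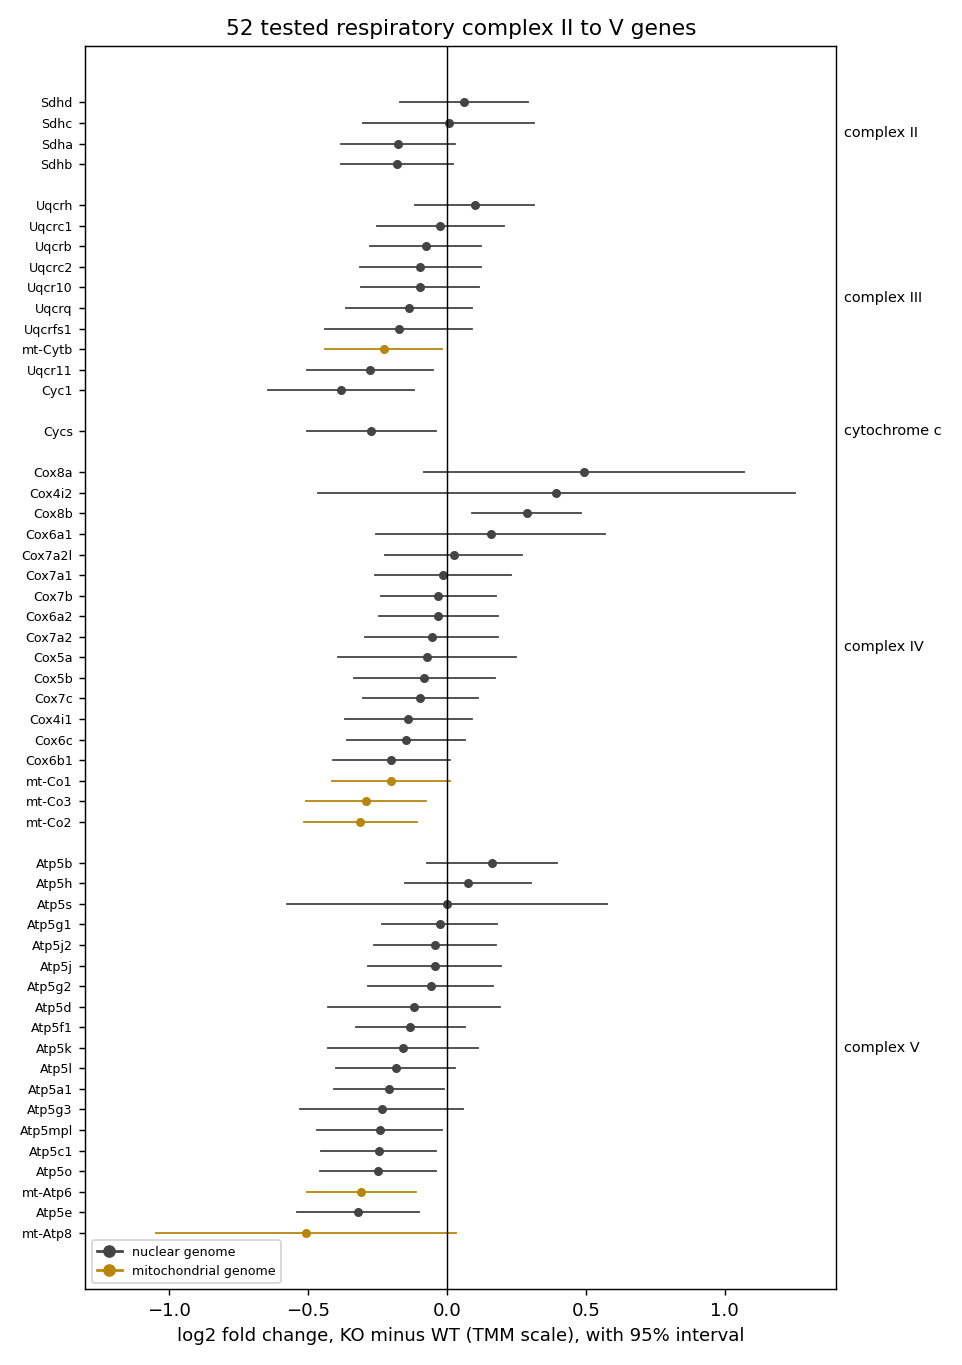
Log2 fold change (KO minus WT, on the TMM scale) with its 95% interval for each of the 52 tested members, grouped by complex and coloured by genome. All 6 mitochondrially encoded genes lie left of 0, nuclear genes of complex IV lie on both sides, and Cox8b (0.29) is the member whose interval lies wholly to the right.

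In 17 of 52 members (32.7%) every KO library lay below every WT library, beside 12.2% of all genes tested. The opposite order was found for 1 member (1.92%), Cox8b, beside 13.5% of all genes tested. All genes tested were not matched to the members in level or standard error. The members also tended to move together by library, so they are not independent counts. The 17 were Sdha, Sdhb, mt-Cytb, Cyc1, Uqcr11, Cycs, mt-Co2, mt-Co3, Cox6b1, mt-Atp6, Atp5a1, Atp5c1, Atp5e, Atp5f1, Atp5l, Atp5mpl and Atp5o. This order depended on the scaling: with plain library totals, 0 members lay below and 10 above, beside 5.21% and 28.2% of all genes tested. On that scale the members' median log2 fold change was 0.126 and that of all genes 0.251. A change of scaling shifts all genes by about the same amount, so the gap between these medians could hardly differ between scales.

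The KO libraries did not contribute equally. KO replicate 1 was the lowest of the 3 KO libraries for 45 of 52 members, as it was for 2372 of all 6680 genes tested. KO replicate 2 was the highest of the 3 for 38 members and for 2187 of all genes tested. Measured against the WT mean, the members' median log2 level was -0.27 in KO replicate 1, -0.02 in KO replicate 2 and -0.10 in KO replicate 3. Left out in turn, KO replicate 1 moved the median log2 fold change over the members to -0.03 and KO replicate 2 moved it to -0.20. Without KO replicate 1, 30 members were negative and 22 positive. KO replicate 2 also held the most slow-fibre RNA. Whether fibre makeup had a part in this order was not tested, although a fit with the slow-fibre level as a covariate gave values that are set out with the genes concerned.

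**Figure D2:**
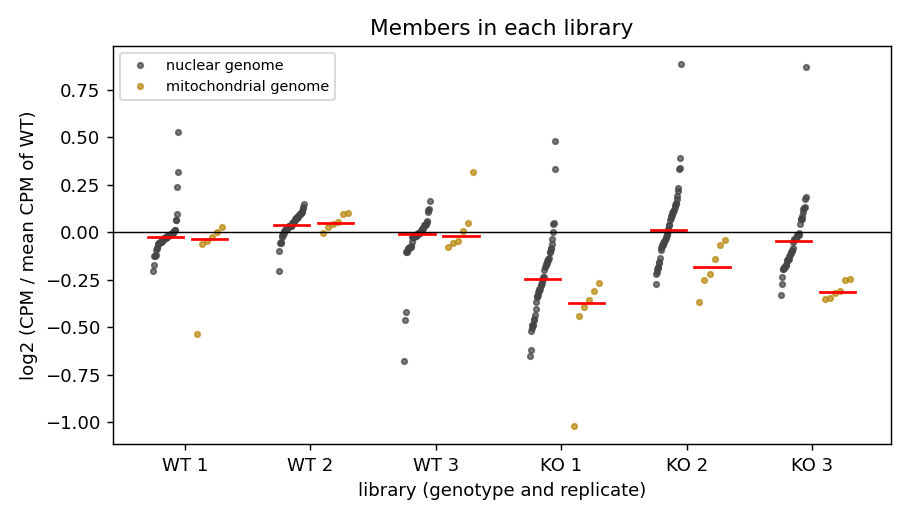
Each point is 1 tested member in 1 library, as log2 of its CPM over the WT mean, in grey for 46 nuclear and in gold for 6 mitochondrially encoded genes; red bars are medians. Nuclear genes in KO replicate 2 centre near 0 (median 0.01) and in KO replicate 1 at -0.25, while the mitochondrially encoded genes lie below the WT mean in each KO library.

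The 6 mitochondrially encoded genes carried the lowest values as a group, each with a negative log2 fold change and with a median of -0.30, beside -0.09 over the 46 tested nuclear members. All 6 lie on the same strand of the mitochondrial genome, which is transcribed as long RNAs that are cut into shorter ones. Their summed level was 22797, 23784 and 22750 CPM in WT and 18395, 21442 and 18542 CPM in KO libraries, so the groups did not overlap (23110 ± 584 against 19460 ± 1719, SD, n = 3). The difference depended on the scaling. On plain library totals the log2 difference of this sum was -0.0169, and mt-Co1 (0.0323) and mt-Cytb (0.00946) had positive log2 fold changes. In bulk tissue, fewer mitochondria-rich cells and less RNA per cell cannot be told apart.

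mt-Atp6, the subunit of ATP synthase that forms the proton path with the c-ring, had the smallest adjusted p of all members. Its level was 2585, 2582 and 2437 CPM in WT and 1979, 2175 and 1991 CPM in KO libraries. Every KO library lay below every WT library, with a log2 fold change of -0.31 (95% interval -0.50 to -0.11, SE 0.09, edgeR adjusted p = 0.0634). With the slow-fibre covariate mt-Atp6 passed (log2 fold change -0.31, edgeR adjusted p = 0.0389), in a fit that called 6.42% of all genes tested.

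mt-Co2, which carries the copper centre that receives electrons from cytochrome c, measured 2168, 2345 and 2270 CPM in WT and 1668, 1900 and 1896 CPM in KO libraries. The groups did not overlap (log2 fold change -0.31, SE 0.09, edgeR adjusted p = 0.0677). mt-Co3, the third core subunit of complex IV, measured 4429, 4830 and 4263 CPM in WT and 3434, 4080 and 3538 CPM in KO libraries, again without overlap (log2 fold change -0.29, SE 0.10, edgeR adjusted p = 0.109). mt-Co1, which holds the oxygen-reducing site, measured 7624, 7852 and 7366 CPM in WT and 6330, 7388 and 6147 CPM in KO libraries. For mt-Co1, KO replicate 2 lay within the WT range (log2 fold change -0.20, SE 0.10, edgeR adjusted p = 0.280).

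mt-Cytb, the ubiquinol-oxidising core of complex III, measured 5962, 6128 and 6360 CPM in WT and 4962, 5865 and 4934 CPM in KO libraries. All KO libraries lay below the WT libraries, KO replicate 2 by a narrow margin (log2 fold change -0.23, SE 0.10, edgeR adjusted p = 0.215). mt-Atp8, a small membrane subunit of ATP synthase, had few assigned reads. It measured 29.9, 46.3 and 54.1 CPM in WT and 21.4, 33.7 and 36.7 CPM in KO libraries. Its groups overlapped, since WT replicate 1 lay below the higher KO libraries (log2 fold change -0.51, 95% interval -1.05 to 0.03, edgeR adjusted p = 0.288). The mt-Atp8 gene (GRCm38, chromosome M, 7766 to 7969) shares 43 bases with mt-Atp6 (7927 to 8607), and mt-Atp6 shares 1 base with mt-Co3 (8607 to 9390). The counts were 341 for mt-Atp8 and 21083 for mt-Atp6 over all libraries, and reads spanning both genes cannot be told apart here. How such reads were assigned is not stated, so the mt-Atp8 count need not reflect the level of its RNA.

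**Figure D3:**
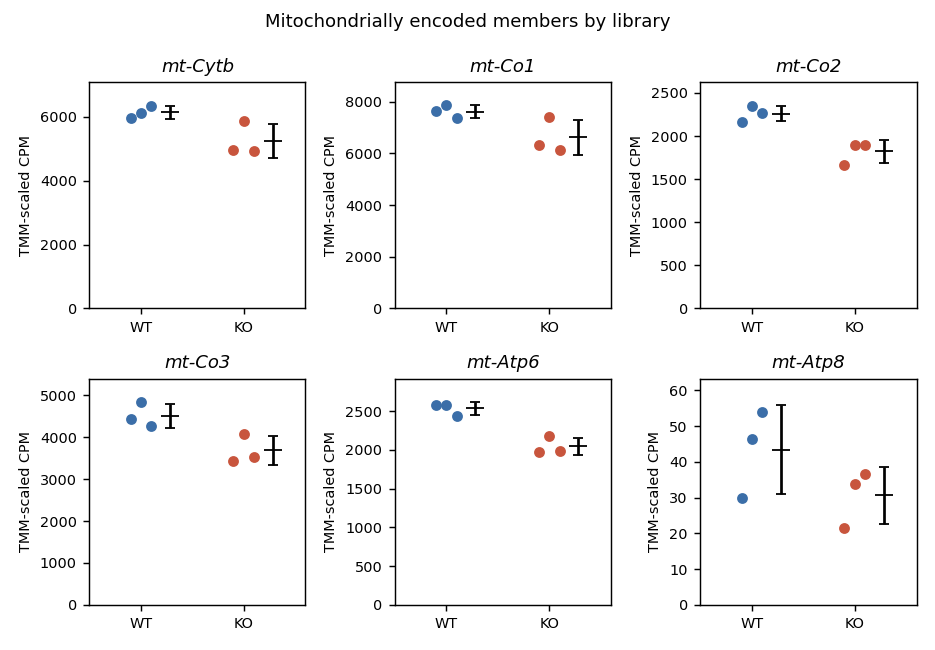
TMM-scaled CPM of the 6 mitochondrially encoded members, with 1 point per library and the mean ± SD of 3 libraries beside each group. The KO points of mt-Cytb, mt-Co2, mt-Co3 and mt-Atp6 lie below all WT points, while those of mt-Co1 and mt-Atp8 overlap with WT.

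A ratio taken within each library needs no scaling factor. Reads of the 6 mitochondrially encoded members came to 43.0, 42.2 and 42.5 per 100 reads of nuclear members in WT and to 40.6, 39.1 and 36.0 in KO libraries. The groups did not overlap (42.6 ± 0.413 against 38.6 ± 2.38, SD, n = 3). This ratio was picked after the values were seen and is given as a description. As a share of all listed counts, the mitochondrially encoded members held 2.10% ± 0.143 in WT and 2.08% ± 0.199 in KO, and the nuclear members 4.94% ± 0.338 and 5.40% ± 0.481 (SD, n = 3 each).

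No gene of complex II passed the threshold. Sdha, the flavoprotein that oxidises succinate, measured 571, 594 and 579 CPM in WT and 519, 530 and 494 CPM in KO libraries. Sdhb, the iron-sulphur subunit beside it, measured 1342, 1405 and 1395 CPM in WT and 1137, 1314 and 1209 CPM in KO libraries. For both catalytic subunits the KO libraries lay below the WT libraries, by -0.18 log2 units each (SE 0.10 and 0.09, edgeR adjusted p = 0.336 and 0.323). On plain library totals both values turned positive (0.06 for each). Sdhc measured 128, 155 and 160 CPM in WT and 128, 159 and 156 CPM in KO libraries, with overlapping groups (log2 fold change 0.01, 95% interval -0.30 to 0.31). Sdhd measured 406, 409 and 416 CPM in WT and 382, 456 and 447 CPM in KO libraries, with KO libraries on both sides of WT (log2 fold change 0.06 ± 0.11 SE, edgeR adjusted p = 0.813). All 4 genes summed to 2520 ± 63.5 CPM in WT libraries and to 2311 ± 146 CPM in KO libraries (SD, n = 3).

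In complex III, the nuclear member with the lowest value was Cyc1, the cytochrome c1 haem subunit (chromosome 15, 76343523 to 76346260, plus strand, GRCm38). Cyc1 measured 431, 452 and 461 CPM in WT and 285, 392 and 356 CPM in KO libraries. All KO libraries lay below WT, with KO replicate 1 lowest (log2 fold change -0.38, 95% interval -0.64 to -0.12, SE 0.12, edgeR adjusted p = 0.0845). Cyc1 passed in edgeR without a count filter (adjusted p = 0.0459; 4.94% of 14292 genes called) and without KO replicate 2 (adjusted p = 0.0446; 5.19% of 6996 genes called). It was not called in the other alternatives.

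Uqcr11, a small subunit near the iron-sulphur protein, measured 908, 937 and 903 CPM in WT and 653, 786 and 828 CPM in KO libraries, without overlap (log2 fold change -0.28, SE 0.11, edgeR adjusted p = 0.153). Uqcrfs1, the Rieske iron-sulphur protein, measured 708, 745 and 706 CPM in WT and 513, 740 and 663 CPM in KO libraries. There KO replicate 2 lay among the WT libraries (log2 fold change -0.17 ± 0.12 SE, edgeR adjusted p = 0.489). Leaving out KO replicate 1 gave a value of -0.04. Another 6 nuclear members, the core proteins Uqcrc1 and Uqcrc2 and the small subunits Uqcrb, Uqcrh, Uqcrq and Uqcr10, ran from -0.14 (Uqcrq) to 0.10 (Uqcrh) with overlapping groups. Cycs, the cytochrome c that carries electrons from complex III to complex IV, measured 642, 677 and 737 CPM in WT and 497, 603 and 604 CPM in KO libraries. Its groups did not overlap (log2 fold change -0.27, SE 0.11, edgeR adjusted p = 0.176). Together, 9 nuclear genes of complex III summed to 7209 ± 235 CPM in WT and to 6620 ± 523 CPM in KO (SD, n = 3), a log2 difference of -0.12 that was -0.06 without KO replicate 1.

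Nuclear genes of complex IV had a median log2 fold change of -0.03 over 15 tested members, with 10 negative and 5 positive, beside 48.0% of all genes tested negative. They summed to 20924 ± 910 CPM in WT and to 20157 ± 2028 CPM in KO (SD, n = 3), a log2 difference of -0.05 that was 0.02 without KO replicate 1, while the 3 mitochondrially encoded core subunits summed to 14382 ± 582 and 12127 ± 1078 CPM. Cox8b, the muscle and heart form of subunit VIII, lay opposite to the 17 members above (chromosome 7, 140898945 to 140900446, minus strand, GRCm38). It measured 1397, 1446 and 1410 CPM in WT and 1784, 1794 and 1614 CPM in KO libraries. Every KO library lay above every WT library (log2 fold change 0.29, 95% interval 0.09 to 0.48, SE 0.09, edgeR unadjusted p = 0.00714, adjusted p = 0.0810). On plain library totals Cox8b passed (log2 fold change 0.52, edgeR adjusted p = 0.00318), in a fit that called 12.0% of all genes tested. As a share of all nuclear member reads, which needs no scaling factor, Cox8b held 2.64%, 2.57% and 2.64% in WT and 3.94%, 3.27% and 3.13% in KO libraries.

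Cox8a, the form of subunit VIII found in most tissues (chromosome 19, 7215153 to 7217616, minus strand), measured 231, 210 and 147 CPM in WT and 273, 362 and 194 CPM in KO libraries. Its groups overlapped, and both varied widely (log2 fold change 0.49, 95% interval -0.08 to 1.07, SE 0.25, edgeR adjusted p = 0.331). Without KO replicate 2 its log2 fold change was 0.25. Cox8a passed in edgeR without a count filter (adjusted p = 0.0130) and with the slow-fibre covariate (adjusted p = 0.0354). Cox6b1, a subunit on the intermembrane side, measured 1923, 2112 and 1979 CPM in WT and 1580, 1893 and 1767 CPM in KO libraries, and its groups did not overlap (log2 fold change -0.20 ± 0.10 SE, edgeR adjusted p = 0.282). Another 6 tested nuclear members outside the isoform pairs, namely Cox5a, Cox5b, Cox6c, Cox7a2l, Cox7b and Cox7c, overlapped between genotypes and ran from -0.15 (Cox6c) to 0.02 (Cox7a2l).

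The promoters of 4 members, picked after their values were seen, are shown as examples: Cox8b, in which every KO library lay above WT, its partner Cox8a, and Uqcr11 and Atp5e, in which every KO library lay below. Each run is the 250 bases before the RefSeq gene start in GRCm38.p6, read 5′ to 3′ on the gene's strand, and capitals mark an ETS match (CCGGAAG, or CTTCCGG on the other strand).
Cox8b (chr7:140900447-140900696, minus strand): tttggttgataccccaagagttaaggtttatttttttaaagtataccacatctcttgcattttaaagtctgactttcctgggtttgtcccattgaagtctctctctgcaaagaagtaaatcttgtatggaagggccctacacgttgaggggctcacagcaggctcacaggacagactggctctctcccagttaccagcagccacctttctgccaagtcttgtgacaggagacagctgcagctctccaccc
Cox8a (chr19:7217617-7217866, minus strand): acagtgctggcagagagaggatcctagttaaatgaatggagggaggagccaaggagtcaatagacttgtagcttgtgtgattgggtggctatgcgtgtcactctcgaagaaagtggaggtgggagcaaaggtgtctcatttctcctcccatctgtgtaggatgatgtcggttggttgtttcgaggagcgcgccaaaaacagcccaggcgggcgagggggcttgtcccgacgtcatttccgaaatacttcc
Uqcr11 (chr10:80406822-80407071, minus strand): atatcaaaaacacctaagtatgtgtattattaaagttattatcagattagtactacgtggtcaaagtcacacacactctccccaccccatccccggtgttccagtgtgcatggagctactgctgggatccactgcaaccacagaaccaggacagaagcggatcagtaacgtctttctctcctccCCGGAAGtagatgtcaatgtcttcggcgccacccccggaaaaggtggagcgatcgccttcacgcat
Atp5e (chr2:174464102-174464351, minus strand): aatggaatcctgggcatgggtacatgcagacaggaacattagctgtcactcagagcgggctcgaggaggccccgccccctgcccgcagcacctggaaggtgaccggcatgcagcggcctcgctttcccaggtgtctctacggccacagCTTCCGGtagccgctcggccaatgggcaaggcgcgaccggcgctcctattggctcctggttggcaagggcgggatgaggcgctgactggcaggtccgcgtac

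Windows were found for 33 of the tested members and for 27025 genes in all. Unlike the members, the 27025 genes were not filtered for expression, so the shares below compare unlike sets. The ETS letters occurred in 9 of the 33 members (27.3%) and in 7.83% of all genes, on either strand. They lay 66 bases before the start of Uqcr11 and 102 bases before that of Atp5e, and in neither Cox8 window. Of the other members with a match, Sdhd, Uqcrh, Cox6a1 and Atp5h had positive log2 fold changes (0.06, 0.10, 0.16 and 0.08), and Atp5j, Atp5l and Cox6b1 negative ones (-0.04, -0.18 and -0.20). An ERR motif (TNAAGGTCA) occurred in 1 member (3.03%) and 1.30% of genes, a YY1 motif (AAGATGGCG) in 1 member (3.03%) and 0.711% of genes, and an NRF1 motif in 3 members (9.09%) and 1.12% of genes. A MEF2 motif was matched in 0 members and 3.42% of genes. The Cox8b window had a GC content of 47.2%, with 5 of the 33 members lower, and the members' median was 54.0% (52.4% over all genes). These matches describe letters in the window and nothing about binding.

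Complex IV and complex V use paired or triple genes for some subunits, with forms typical of muscle and heart beside forms found in most tissues. The share of a set's reads held by each form was compared with an exact two-sided permutation test over libraries, for 7 shares with Benjamini-Hochberg adjustment; 3 libraries against 3 cannot give a p below 0.1. Cox6a2, the muscle form of subunit VIa, held 98.0% ± 0.478 of its pair in WT and 97.7% ± 0.106 in KO (SD, n = 3; exact p = 0.4, adjusted 0.7). Cox7a1, the muscle form of subunit VIIa, held 40.2% ± 2.57 and 40.9% ± 0.673 (exact p = 0.9, adjusted 0.9). Cox8b held 87.9% ± 2.45 and 86.4% ± 3.05 of its pair (exact p = 0.5, adjusted 0.7), so both Cox8 genes had positive values while their proportion differed by less than the spread between libraries.

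The levels behind these shares overlapped between genotypes. Cox6a2 measured 3147, 3352 and 2987 CPM in WT and 2812, 3390 and 3083 CPM in KO libraries (log2 fold change -0.03), and Cox6a1 measured 81.0, 66.8 and 47.2 against 67.3, 81.8 and 68.2 CPM (log2 fold change 0.16). Cox7a1 measured 870, 979 and 916 CPM in WT and 761, 1011 and 968 CPM in KO libraries (log2 fold change -0.01), and Cox7a2 measured 1465, 1358 and 1292 against 1115, 1490 and 1356 CPM (log2 fold change -0.06). Cox6a1 varied by nearly as much within WT as across all libraries, and KO replicate 1 was the lowest library for Cox6a2, Cox7a1 and Cox7a2. Cox4i1, the common form of subunit IV, measured 2245, 2307 and 2228 CPM in WT and 1752, 2316 and 2093 CPM in KO libraries, with overlap (log2 fold change -0.14, SE 0.11; -0.03 without KO replicate 1). Cox4i2, the form known from lung and hypoxic cells, was shallow, at 9.48, 6.13 and 4.11 CPM in WT and 6.12, 7.50 and 12.0 CPM in KO libraries, with overlap. It held 0.290% ± 0.120 of the pair in WT and 0.414% ± 0.137 in KO (exact p = 0.4, adjusted 0.7).

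In complex V, 15 of the 17 tested nuclear members had negative values (median -0.13), beside 48.0% of all genes tested. In 7 of them every KO library lay below every WT library, an order found for 12.2% of all genes tested, which were not matched in level. The nuclear members summed to 22939 ± 810 CPM in WT and to 20886 ± 2164 CPM in KO (SD, n = 3), a log2 difference of -0.14 that was -0.05 without KO replicate 1. On plain library totals 0 members lay below WT in every KO library, and the log2 difference of this sum was positive. Atp5e, the epsilon subunit of the central stalk, had the lowest nuclear value in complex V, at 2253, 2411 and 2339 CPM in WT and 1627, 1934 and 2050 CPM in KO libraries. Its groups did not overlap (log2 fold change -0.32, 95% interval -0.54 to -0.10, SE 0.10, edgeR adjusted p = 0.0845). Atp5c1, the gamma subunit that turns within the catalytic head, measured 1478, 1698 and 1652 CPM in WT and 1299, 1444 and 1332 CPM in KO libraries. Atp5o, the subunit that ties the head to the outer stalk, measured 1723, 1831 and 1818 CPM in WT and 1353, 1548 and 1625 CPM in KO libraries. Neither gene's groups overlapped (log2 fold change -0.24, SE 0.10 for Atp5c1 and -0.25, SE 0.10 for Atp5o; edgeR adjusted p = 0.168 and 0.170).

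The alpha and beta subunits alternate in the catalytic head in equal number. Atp5a1 (alpha) measured 1547, 1623 and 1619 CPM in WT and 1297, 1402 and 1448 CPM in KO libraries, with all KO libraries below WT (log2 fold change -0.21, SE 0.09, edgeR adjusted p = 0.225). Atp5b (beta) measured 1167, 1172 and 1136 CPM in WT and 1159, 1515 and 1213 CPM in KO libraries, with overlapping groups (log2 fold change 0.16, SE 0.11, edgeR adjusted p = 0.460). Atp5b reads per Atp5a1 read came to 0.754, 0.722 and 0.702 in WT and 0.893, 1.08 and 0.838 in KO libraries. This ratio needs no scaling factor and its groups did not overlap (0.726 ± 0.0262 against 0.937 ± 0.127, SD, n = 3), but it was picked after the values were seen and is given as a description. Without KO replicate 2 the difference of the means was 0.140 in place of 0.211. The log2 fold change of Atp5b was 0.03 without that library. On plain library totals both genes had positive values, 0.03 for Atp5a1 and 0.40 for Atp5b, which passed (edgeR adjusted p = 0.0345).

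**Figure D4:**
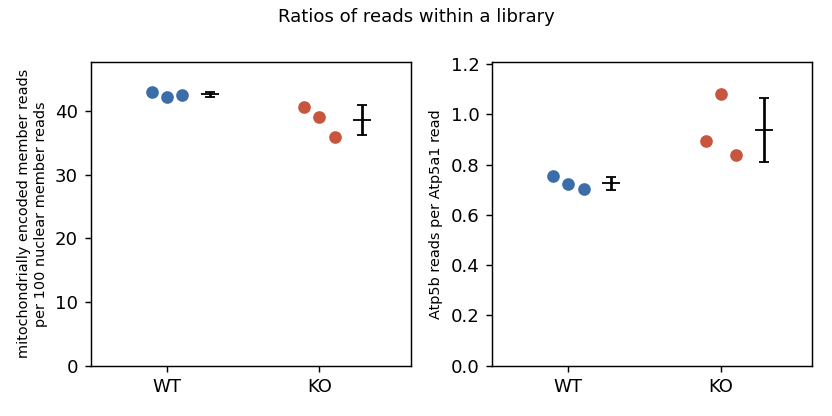
Ratios of reads within a library, with 1 point per library and the mean ± SD of 3 libraries; left, mitochondrially encoded member reads per 100 nuclear member reads; right, Atp5b reads per Atp5a1 read. The KO points lie below the WT points on the left (36.0 to 40.6 against 42.2 to 43.0) and above them on the right (0.838 to 1.08 against 0.702 to 0.754).

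Subunit c, which forms the rotating ring, is encoded by 3 genes whose mature proteins are the same and whose import sequences differ. Atp5g1 held 49.1% ± 1.04 of their reads in WT and 51.6% ± 2.15 in KO (exact p = 0.3, adjusted 0.7), and Atp5g2 held 20.0% ± 2.31 and 20.6% ± 1.08 (exact p = 0.7, adjusted 0.817). Atp5g3 held 30.9% ± 1.30 and 27.8% ± 3.09 (exact p = 0.2, adjusted 0.7). Atp5g1 measured 2171, 2334 and 2138 CPM in WT and 2007, 2357 and 2162 CPM in KO libraries, and Atp5g2 measured 824, 866 and 1010 against 810, 904 and 879 CPM. Both overlapped between genotypes (log2 fold change -0.03 and -0.06). Atp5g3 measured 1363, 1499 and 1311 CPM in WT and 904, 1327 and 1314 CPM in KO libraries. The value of KO replicate 1 stood apart there and the groups overlapped (log2 fold change -0.24, SE 0.14, edgeR adjusted p = 0.380; -0.07 without KO replicate 1). Among the remaining nuclear members, Atp5f1, Atp5l and Atp5mpl had KO libraries wholly below WT (-0.13, -0.18 and -0.24), and Atp5d, Atp5h, Atp5j, Atp5j2, Atp5k and Atp5s ran from -0.16 (Atp5k) to 0.08 (Atp5h) with overlap.

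**Figure D5:**
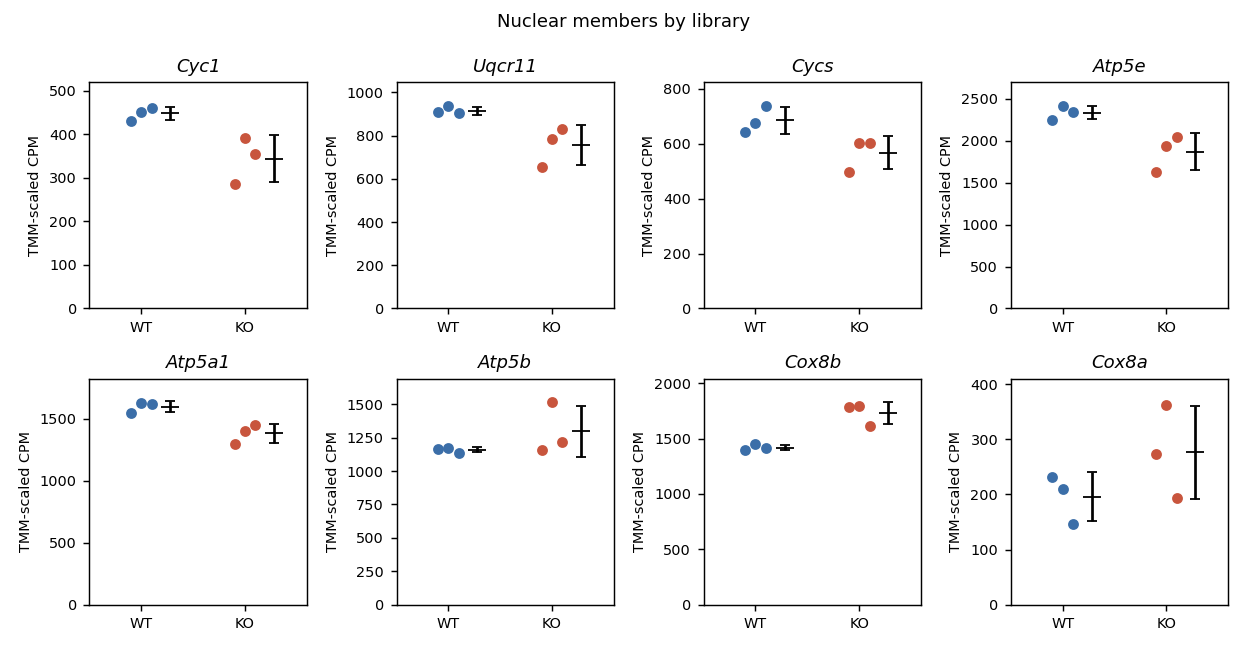
TMM-scaled CPM of 8 nuclear members, with 1 point per library and the mean ± SD of 3 libraries beside each group. KO points lie below all WT points for Cyc1, Uqcr11, Cycs, Atp5e and Atp5a1, above all of them for Cox8b, and overlap with WT for Atp5b and Cox8a.

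Taking each nuclear member as a share of all nuclear member reads removes the library scaling. On that scale 8 of the 46 tested nuclear members lay above WT in every KO library and 9 lay below. Per nuclear member read, 16.8% of the 6667 nuclear genes tested lay above and 8.11% below. The members make up this denominator and the other genes do not, so these percentages are no like-for-like background for the members. Cyc1 held 0.814%, 0.802% and 0.861% in WT and 0.630%, 0.714% and 0.690% in KO libraries, and Atp5e held 4.25%, 4.28% and 4.37% in WT and 3.59%, 3.53% and 3.98% in KO libraries. Atp5h, a stalk subunit, held 2.03%, 2.02% and 2.02% in WT and 2.21%, 2.35% and 2.29% in KO libraries. The groups did not overlap for any of these 3 genes. The shares of a library have a fixed total, so a fall in some members forces a rise in others. Atp5h was picked after its values were seen.

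Of the members not tested, Cox8c, Cox7b2 and a second row named Atp5o had 0 counts in every library, where 3 counts correspond to 1.72 to 2.19 CPM. That second row shares 1769 bases on the same strand with the tested Atp5o, which held 15232 counts over all libraries. Its 0 therefore depends on how shared reads were assigned and is no measure of its level. Cox6b2, a form of subunit VIb known from testis, had 1 count in each WT library and 3, 4 and 2 counts in the KO libraries, and was too shallow to test. ATP synthase genes with other symbols fell outside the choice of members. Usmg5, a small membrane subunit, had a log2 fold change of -0.24 (edgeR adjusted p = 0.217), and Atpif1, the inhibitor of ATP synthase, one of 0.35 (86.0 ± 17.2 against 109 ± 1.45 CPM, edgeR adjusted p = 0.248).

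Of 70 tested genes that build, express or serve these complexes, 3 passed (4.29%), beside 6.26% of all genes tested. Assembly factors of complexes II, III and V gave 0 calls among 3, 5 and 4 tested genes, and those of complex IV gave 1 higher and 0 lower among 22 (median 0.03). That gene was Cox19, a copper-handling factor for complex IV, at 54.0, 68.8 and 58.2 CPM in WT and 109, 107 and 105 CPM in KO libraries. Cox19 rose by 0.83 log2 units (SE 0.15, edgeR adjusted p = 0.00368) with no overlap, and passed in each alternative in which it was tested. Cox10, an enzyme on the way to the haem of complex IV, measured 47.5 ± 0.920 and 38.9 ± 7.46 CPM (log2 fold change -0.28, edgeR adjusted p = 0.446).

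Mitochondrial RNA and expression genes gave 0 calls among 12 tested (median -0.25). Tfam, which packages mitochondrial DNA and is a factor for its transcription, measured 26.3, 34.8 and 30.8 CPM in WT and 17.7, 14.4 and 22.3 CPM in KO libraries, without overlap (log2 fold change -0.75, SE 0.23, edgeR adjusted p = 0.0719). Lrpprc, which stabilises mitochondrial messages, had a log2 fold change of 0.44 (SE 0.44, edgeR adjusted p = 0.651), which became -0.20 without KO replicate 2. Biogenesis regulators gave 0 calls among 7, and Ppargc1a, the coactivator PGC-1alpha, measured 36.6 ± 12.2 and 29.1 ± 2.31 CPM (log2 fold change -0.33, edgeR adjusted p = 0.514).

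Among 7 ADP and phosphate carriers and membrane channels, 1 was lower and 0 higher (median -0.14). Vdac3, an outer-membrane channel, fell by 0.43 log2 units (SE 0.10, edgeR adjusted p = 0.0182), from 757, 791 and 884 CPM in WT to 621, 583 and 606 CPM in KO libraries. That call was lost on plain library totals (edgeR adjusted p = 0.212) and when WT replicate 2, WT replicate 3, KO replicate 2 or KO replicate 3 was left out (0.0571 to 0.0937). Among 10 genes that shape the inner membrane, 1 was lower and 0 higher (median -0.10). Chchd3, a subunit of the MICOS complex at cristae junctions, fell by 0.71 log2 units (SE 0.11, edgeR adjusted p = 0.000957), from 565, 606 and 589 CPM in WT to 316, 395 and 364 CPM in KO libraries. Chchd3 passed in every alternative, and in it as in Vdac3 no KO library reached the WT range.

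Marker lists of other cells gave these values beside the members. Red blood cell genes summed to 1623 to 4002 CPM in WT and 1401 to 2016 CPM in KO libraries, endothelial genes to 79.4 to 109 and 76.5 to 117 CPM, macrophage genes to 101 to 351 and 125 to 141 CPM, and fibroblast genes to 1308 to 2079 and 1297 to 1985 CPM. None of the tested genes in these 4 lists passed. Fat genes summed to 129 to 306 CPM in WT and 239 to 277 CPM in KO libraries, with Ucp1 at 0 in all of them. Cidea, a lipid-droplet protein, rose from 1, 0 and 2 counts in WT to 17, 14 and 19 counts in KO libraries (ratio 14.4, exact 95% counting interval 4.65 to 72.1, edgeR adjusted p = 0.00104). Of the myofibre lists, Acta1 (-0.66) and Ttn (-0.97) fell among 4 skeletal genes, and Tnnc2 (-0.67), Mylpf (-0.76) and Myh4 (-1.36) fell among 8 fast-fibre genes. Ttn did not pass without WT replicate 3 (edgeR adjusted p = 0.0527) or without KO replicate 2 (0.0598). The part of these differences in the members' values was not tested.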

How the data were processed

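Nanopore cDNA libraries of quadriceps femoris from 3 Prr14-WT and 3 Prr14-KO samples were analysed from the deposited gene table. The submitters' processing notes name minimap2, DESeq2 1.6.3 and the GRCm38 build, without their roles; no label or note names the read counter, its strand setting or the annotation. The authors deposited raw counts and CPM per gene for each library; the counts were used, and the deposited CPM, computed on totals that include reads outside the listed genes (3.09% to 4.10%), served only to check them. Gene names matched the reference name table for 22022 of 22036 identifiers.

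Counts were fitted over the whole table in edgeR 4.0.16 (R 4.3.3; filterByExpr with a minimum count of 10 and a total of 15, TMM, robust quasi-likelihood test, two-sided, Benjamini-Hochberg, threshold 0.05). Alternatives used DESeq2 1.42.0, limma-voom (limma 3.58.1), other scalings and filters, a slow-fibre covariate, and each library left out. Code was tested on simulated data. Named with values were members past the threshold, the mitochondrially encoded ones, the 3 nuclear members of each complex with the smallest p, complex II, Cyc1, Cycs and the isoform sets, and in other lists the genes past the threshold with Ppargc1a, Tfam, Lrpprc and Cox10; Atp5b, Atp5a1, Atp5h, Usmg5, Atpif1 and the within-library ratios were picked after their values were seen. The members and lists were chosen with earlier results of these data known. Promoter windows came from RefSeq (GRCm38.p6), with 250 bases before the start searched for 5 motifs; positions came from GENCODE M21. Counting intervals cover counting error only.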

Additional observations from a re-analysis of the deposited data

How the results depend on the processing

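No member was called with DESeq2 size factors, upper-quartile scaling, nuclear genes only, the 5 CPM filter, DESeq2, limma-voom and a fit without robust estimation. Plain library totals called 2 members higher (Atp5b and Cox8b) and 0 lower, beside 12.0% of all genes. The fit without a filter called 1 higher (Cox8a) and 1 lower (Cyc1), beside 4.94% of all genes, and the slow-fibre covariate 1 higher (Cox8a) and 1 lower (mt-Atp6), beside 6.42%. With each library left out, 0 members were higher and 0 to 1 lower (Cyc1, without KO replicate 2, beside 5.19%). The members' median log2 fold change was 0.126 on library totals and -0.205 to -0.0295 with each library left out.

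Library totals turned the sign of Atp5a1 (0.0266), Atp5g1 (0.207), Atp5g2 (0.181), Cox4i1 (0.0944), Cox6a2 (0.201), Cox6b1 (0.0344), Cox7a1 (0.219), Cox7a2 (0.174), Sdha (0.0584), Sdhb (0.0560), Uqcrfs1 (0.0593), mt-Co1 (0.0323) and mt-Cytb (0.00946), all in log2 units. They moved the log2 difference of the sums to 0.107 for complex II, 0.107, 0.175 and 0.0951 for nuclear complexes III, IV and V, -0.0384 for cytochrome c and -0.0169 for the mitochondrially encoded members. Sdhc, near 0, turned to -0.0102 (DESeq2 size factors), -0.000467 (upper quartile), -0.0126 (nuclear genes only), -0.00164 (no filter) and -0.0112 (DESeq2), and ran from -0.114 to 0.0999 with each library left out.

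With each library left out, the sign also turned within the ranges of Atp5g1 (-0.0874 to 0.0302), Atp5g2 (-0.148 to 0.0263), Cox6a1 (-0.0341 to 0.318), Cox6a2 (-0.102 to 0.0346), Cox7a1 (-0.0931 to 0.103), Cox7a2 (-0.151 to 0.0540) and Lrpprc (-0.204 to 0.802). The nuclear complex IV sum ran from -0.128 to 0.0172. The isoform shares turned for Cox7a1 (-0.824 to 1.51 percentage points, KO minus WT), Cox8b (-2.93 to 0.108) and Atp5g2 (-0.231 to 1.88). The cause was not tested. No paired analysis was possible because the sample titles of the genotypes share 1 number only. Low counts limit Cox6b2, Cox4i2, Atp5s and mt-Atp8, and those of mt-Atp8 also depend on how reads shared with mt-Atp6 were assigned.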
